A study of Tetranychus urticae with 4 samples.

Results

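The genome of the two-spotted spider mite Tetranychus urticae carries genes for carotenoid synthesis that were acquired from fungi, and 6 of them are described here, out of 18020 gene identifiers in the count table. They were chosen by identifier and lie in 2 clusters. The scaffold 1 cluster holds tetur01g11260 and tetur01g11270, and the scaffold 11 cluster holds tetur11g04810, tetur11g04820, tetur11g04830 and tetur11g04840. RNA of adult females of the London strain was sequenced. Pools of 100 intact females gave 3 whole-body libraries, and a pool of 250 females gave 1 library of dissected proterosomas. The labels give no treatment and no age beyond adult for either group. The proterosoma is the front of the mite body and bears the mouthparts, the salivary glands and the red eyes, and a whole body contains its own proterosoma. The study compared both body parts to find genes enriched in the salivary glands.

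Most animals cannot make carotenoids and take these pigments from food, but spider mites and some aphids carry synthesis genes related to those of fungi. In fungi a fused cyclase/synthase joins prenyl diphosphates into the colourless phytoene, a desaturase adds double bonds that give the coloured lycopene, and the cyclase part closes the end rings that make carotenes. In spider mites carotenoids colour the eyes and the bodies of females in diapause. The 6 genes are carotenoid cyclase/synthases and desaturases as a group. The files do not say which identifier encodes which enzyme, and 0 of the 18020 identifiers occurred in the RefSeq gene table used, so no single gene is given a role here. For the same reason the label proterosoma could not be checked against marker genes, and no sequences are shown.

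Library totals ranged from 11630954 to 23647775 counts. Levels are in CPM (read counts put on a common scale of library size), with library sizes adjusted by TMM, edgeR's trimmed mean of M-values, unless library size alone is named. The labels do not say whether the whole-body pools came from separate cultures, so the spread behind the p-values may be technical. The proterosoma has 1 library, whose variation was taken to equal that of the whole bodies. In such bulk samples, fewer cells of a type and less RNA per cell cannot be told apart. Of 13278 genes tested, 81.4% differed between the body parts (edgeR quasi-likelihood test, adjusted p under 0.05). The higher genes were 41.0% of those tested and the lower genes 40.4%. With library size alone these shares were 31.2% and 52.2%, and the median log2 fold of all genes moved by -0.57.

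In the front body the carotenoid genes went in different directions. Of the 6 genes, 4 rose in the proterosoma library, 1 fell and 1 had too few reads to be tested. With library size alone 4 genes were called, since the small rise of tetur11g04820 was then lost (adjusted p = 0.800, edgeR). The rise ranged from 1.53-fold for tetur11g04820 to 44.0-fold for tetur11g04810, and tetur11g04840 was 6.03-fold lower. That all 5 tested genes were called is near the background of 81.4%. The count of members is therefore no result by itself, and the sizes and directions are described below. The median log2 fold of the 5 tested genes was 1.63, and that of all genes tested was -0.03. At least 2-fold higher were 3 of the carotenoid genes and at least 2-fold lower was 1, where the background was 31.6% and 30.0%.

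**Figure D1:**
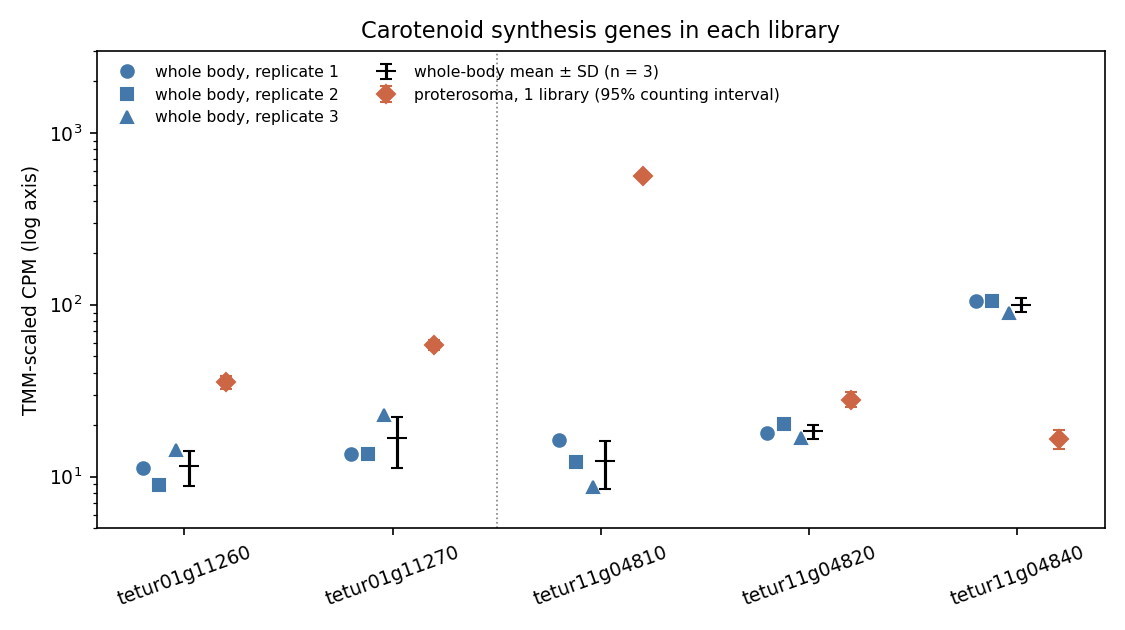
TMM-scaled CPM (log axis) of the 5 carotenoid genes with enough reads to test, by library, with the whole-body mean ± SD (n = 3) and the 95% counting interval of the single proterosoma library. The dotted line separates the scaffold 1 genes from the scaffold 11 genes. The proterosoma value lies outside the whole-body range for all 5, below it only for tetur11g04840, and with library size alone for 4. The share of all tested genes for which this holds was not counted, so these numbers are no result by themselves.

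Both genes of the scaffold 1 cluster rose by a similar factor. The gene tetur01g11260 had 305, 121 and 178 reads in whole-body replicates 1, 2 and 3 and 519 in the proterosoma library. Its levels were 11.3, 8.92 and 14.3 CPM in the whole bodies, with a mean of 11.5 ± 2.68 CPM (SD, n = 3), and 35.5 CPM in the proterosoma library. The groups did not overlap, and the proterosoma value was 2.49 times the highest whole-body value. This 3.10-fold rise is a log2 fold of 1.63 ± 0.22 (standard error; edgeR adjusted p = 6.56e-04).

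Its neighbour tetur01g11270 had 367, 184 and 286 whole-body reads and 858 proterosoma reads. Its levels were 13.6, 13.6 and 22.9 CPM in whole bodies, with a mean of 16.7 ± 5.40 CPM (SD, n = 3), and 58.7 CPM in the proterosoma library. Replicate 3 stood above the other whole bodies, and the proterosoma library was again higher than all of them. The rise was 3.57-fold, a log2 fold of 1.84 ± 0.27 (standard error; edgeR adjusted p = 1.07e-03). Of all tested genes, 24.2% had a higher fold than tetur01g11260 and 22.1% a higher fold than tetur01g11270. With library size alone, the log2 fold was 1.06 for tetur01g11260 and 1.27 for tetur01g11270, with adjusted p = 3.40e-03 and 3.20e-03 by the same test.

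The scaffold 1 pair kept nearly the same balance of reads in both body parts. For each read of tetur01g11260 there were 1.20, 1.52 and 1.61 reads of tetur01g11270 in whole-body replicates 1, 2 and 3 and 1.65 in the proterosoma library. This ratio needs no scaling, and gene length cancels when it is compared between libraries. The proterosoma value lay just above the whole-body range, and the log2 ratio differed by less than the SD of the whole bodies (0.21 against 0.22). An exact two-sided permutation test gave p = 0.5, and with 1 library against 3 the smallest p possible is 0.25. The log2 folds of these neighbours differed by 0.21, where the median difference between the 10870 pairs of tested neighbours in identifier order was 1.93. A difference of that size or less was found in 6.47% of these pairs.

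The scaffold 11 cluster held the gene with the largest rise and the only one that fell. The gene tetur11g04810 had 441, 164 and 108 reads in whole-body replicates 1, 2 and 3 and 8171 in the proterosoma library. Its levels were 16.3, 12.1 and 8.66 CPM in whole bodies, with a mean of 12.4 ± 3.84 CPM (SD, n = 3), and 559 CPM in the proterosoma library, with a 95% exact Poisson interval of 547 to 571 CPM for counting error only. The proterosoma value was 34.2 times the highest whole-body value. The rise was 44.0-fold, or 5.46 ± 0.25 on the log2 scale (standard error; edgeR adjusted p = 7.01e-06). Only 268 of the 13278 tested genes, or 2.02%, had a larger fold.

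The last gene of the cluster, tetur11g04840, showed the opposite pattern. It had 2843, 1420 and 1112 whole-body reads and 242 proterosoma reads. Its levels were 105.3, 104.7 and 89.1 CPM in whole bodies, with a mean of 99.7 ± 9.15 CPM (SD, n = 3), and 16.5 CPM in the proterosoma library (95% exact Poisson interval 14.5 to 18.8). The lowest whole-body value was 5.39 times the proterosoma value. The log2 fold was -2.59 ± 0.14 (standard error; edgeR adjusted p = 1.36e-05). A lower fold was found for 1653 tested genes, or 12.4%. With library size alone the log2 fold was 4.88 for tetur11g04810 and -3.16 for tetur11g04840, so neither direction depended on the choice between these scalings.

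Between these genes lie one with a small difference and one that was nearly silent. The gene tetur11g04820 had 487, 273 and 209 whole-body reads and 410 proterosoma reads. Its levels were 18.0, 20.1 and 16.8 CPM in whole bodies, with a mean of 18.3 ± 1.70 CPM (SD, n = 3), and 28.0 CPM in the proterosoma library. A higher fold than its 1.53-fold rise was found for 37.8% of the tested genes. The rise is a log2 fold of 0.62 ± 0.13 (standard error; edgeR adjusted p = 5.04e-03). This rise rests on the scaling: with library size alone the values were 20.6, 22.1 and 18.0 CPM in whole bodies and 20.8 CPM in the proterosoma library, which then lay within the whole-body range, and the log2 fold was 0.04 (edgeR adjusted p = 0.800).

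The gene tetur11g04830 had 2, 0 and 1 reads in the whole bodies and 0 in the proterosoma library, and it did not pass the expression filter. A count of 0, which allows up to 3 reads, limits it to 0.205 TMM-scaled CPM in the proterosoma library and to 0.221 in whole-body replicate 2, for counting error only. A difference between the body parts was not detectable at this depth. The treatment of reads with several matching places is not given in the sources used here. Reads that also match near-identical family members may therefore be missing from the counts, which was not tested.

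The make-up of the scaffold 11 cluster was turned over between the body parts. Gene lengths are not in the files, so shares of reads are not shares of transcripts, and only their change between libraries is compared. The gene tetur11g04840 took 75.4%, 76.5% and 77.8% of the cluster's reads in whole-body replicates 1, 2 and 3 and 2.74% in the proterosoma library (95% Wilson interval 2.42 to 3.10%). The gene tetur11g04810 took 11.7%, 8.83% and 7.55% in the whole bodies and 92.6% in the proterosoma library (95% Wilson interval 92.0 to 93.1%). For tetur11g04820 the share was 14.1% ± 1.01 (SD, n = 3) in whole bodies and 4.65% in the proterosoma library. In the scaffold 1 cluster, tetur01g11270 took 58.9% ± 3.74 (SD, n = 3) of the reads in whole bodies and 62.3% in the proterosoma library (95% Wilson interval 59.7 to 64.8%).

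**Figure D2:**
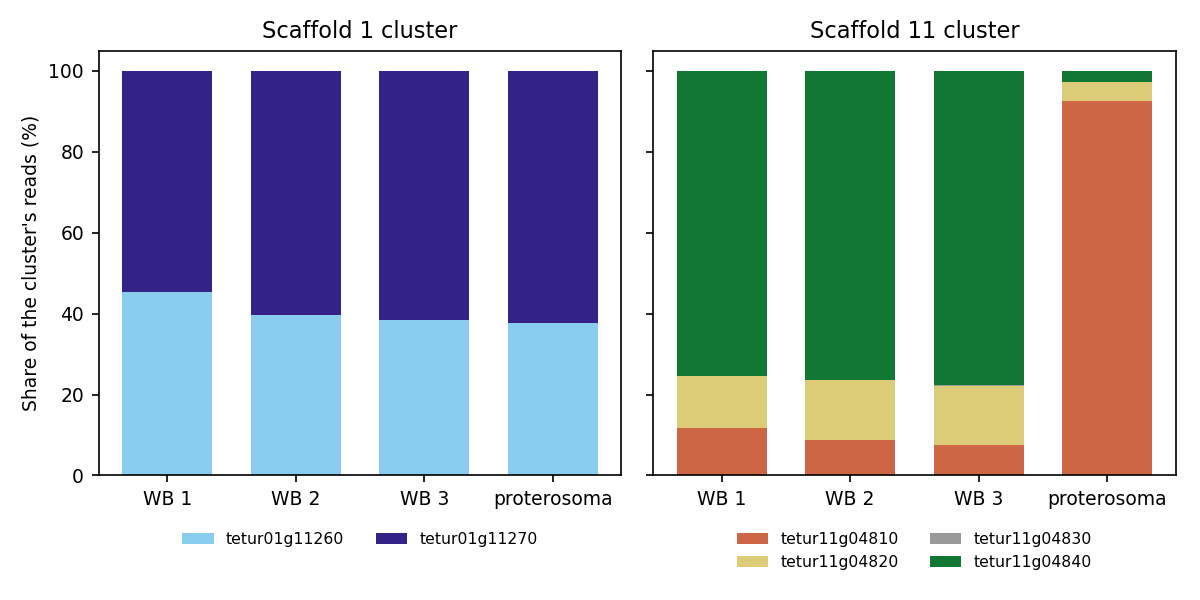
Share of each cluster's reads (%) taken by each of its genes, in whole-body (WB) replicates 1, 2 and 3 and in the proterosoma library. The 2 scaffold 1 genes keep similar shares in all 4 libraries, while in the scaffold 11 cluster tetur11g04840 drops from at least 75.4% in whole bodies to 2.74% and tetur11g04810 reaches 92.6%; the share of tetur11g04830 is too small to be seen.

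The genes tetur11g04810 and tetur11g04840 moved apart between the body parts, which their ratio of reads shows without any scaling. The directions themselves rest on a scaling, and were the same with TMM, DESeq2 size factors, upper quartile and library size alone. The ratio of their reads was 0.155, 0.115 and 0.0971 in whole-body replicates 1, 2 and 3 and 33.8 in the proterosoma library. Relative to the geometric mean of the whole bodies the ratio was 281 times higher. On the log2 scale the difference was 8.13, where the SD of the whole bodies was 0.34. An exact two-sided permutation test gave p = 0.25, the smallest that 1 library against 3 allows. These genes lie 3 places apart in identifier order. Among 10406 such pairs of tested genes on the same scaffold, 3.17% had log2 folds at least as far apart, and in 5.84% one gene was at least 4-fold higher and the other at least 4-fold lower. This pair was picked out after its values were seen.

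All 10 pairs among the 5 tested genes were examined in this way. In all 10 the proterosoma ratio lay outside the whole-body range. The share of all gene pairs for which this holds was not counted, so this number is no result by itself. The 10 pairs are built from the same 5 genes and are not independent. The exact permutation p was 0.25 for 9 pairs and 0.5 for the scaffold 1 pair, and with 1 library against 3 this test cannot pass 0.05. The ratio of tetur11g04820 to tetur11g04840, which was the steadiest among whole bodies with a log2 SD of 0.09, was 9.23 times higher in the proterosoma library.

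When the reads of each cluster were summed, both sums rose in the proterosoma library. The scaffold 1 sum was 24.9, 22.5 and 37.2 CPM in whole-body replicates 1, 2 and 3 and 94.2 CPM in the proterosoma library. This sum rose 3.37-fold, by 1.75 ± 0.24 on the log2 scale (standard error; edgeR adjusted p = 7.41e-04). The scaffold 11 sum was 139.7, 136.9 and 114.6 CPM in whole bodies and 603 CPM in the proterosoma library. It rose 4.63-fold, by 2.21 ± 0.13 on the log2 scale (standard error; edgeR adjusted p = 1.62e-05). In this fit 41.1% of the 13275 genes tested were higher. The rise of the scaffold 11 sum was not shared across its genes. In the proterosoma library tetur11g04810 alone made 559 of the 603 CPM, against a mean of 12.4 CPM in whole bodies. The gene tetur11g04840 fell from a whole-body mean of 99.7 CPM to 16.5 CPM. All 6 genes together took 0.0175% ± 0.00126 of all whole-body reads (SD, n = 3) and 0.0519% of those from the proterosoma.

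**Figure D3:**
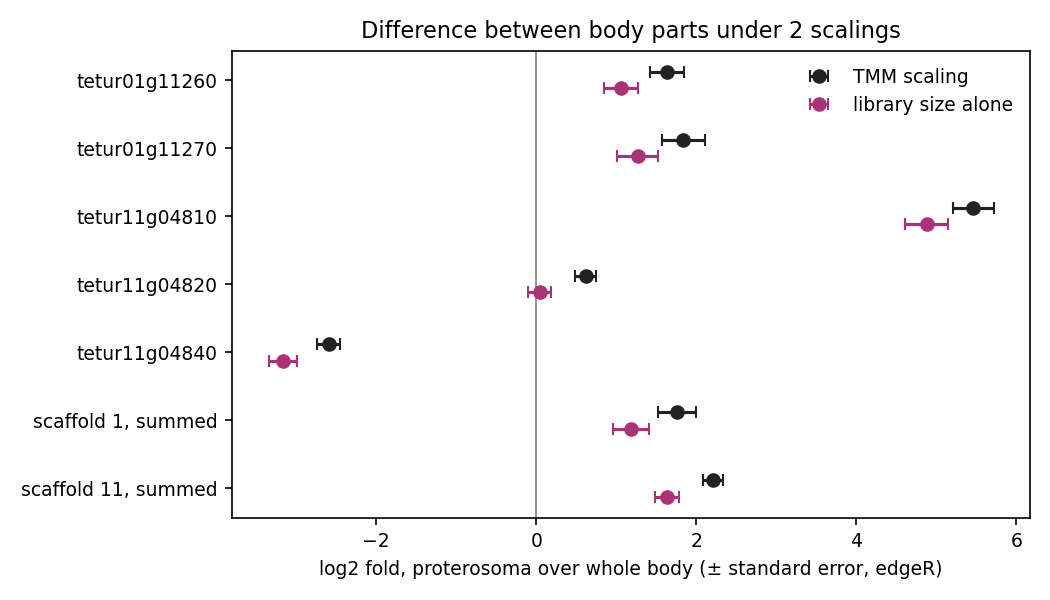
The log2 fold of proterosoma over whole body, with its standard error, for the 5 tested genes and for the summed reads of each cluster, under TMM scaling and with library size alone. All points shift to the left with library size alone, and only tetur11g04820 comes to lie at 0 within its error.

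The cluster sums rose by similar factors, and this design cannot show whether the rises differed. For each read of the scaffold 1 cluster there were 5.61, 6.09 and 3.08 reads of the scaffold 11 cluster in whole-body replicates 1, 2 and 3 and 6.41 in the proterosoma library. The proterosoma value lay above all 3 whole bodies, close to the highest. The log2 ratio was 0.44 higher in the proterosoma library than in whole bodies, where its SD was 0.54 (exact two-sided permutation p = 0.5, with a smallest possible p of 0.25). That SD rests on whole-body replicate 3: without it the log2 difference was 0.13 and the SD of the remaining whole bodies 0.08.

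The outcome also depends on how a cluster is summarised. With the gene with the most reads alone, tetur11g04810 against tetur01g11270, the log2 difference was 3.69, where the SD of the whole bodies was 0.87 (exact permutation p = 0.25). That choice used all 4 libraries, so the proterosoma reads of tetur11g04810 decided it. In whole bodies tetur11g04840 took the most reads of its cluster. The log2 ratio of tetur01g11270 to tetur11g04840 was 4.45 higher in the proterosoma library, so with tetur11g04840 the direction was reversed. With each gene weighing the same, as the mean of log2(count + 0.5), the log2 difference between the clusters was -1.14 with a whole-body SD of 0.39 (exact permutation p = 0.25). That mean includes tetur11g04830, whose value at 0 to 2 reads is set by the added 0.5. Over the 5 tested genes alone, a summary chosen after seeing the data, the log2 difference was -0.56 with a whole-body SD of 0.58, and the proterosoma value lay within the whole-body range (exact permutation p = 1.0).

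The whole-body libraries differed more in some carotenoid genes than in others. The coefficient of variation over the 3 whole bodies was 23.3% for tetur01g11260, 32.3% for tetur01g11270 and 31.1% for tetur11g04810. It was 9.30% for tetur11g04820 and 9.18% for tetur11g04840. The median was 5.78% over the 5490 tested genes with whole-body means from 11.5 to 99.7 CPM. The upper end of this range is set by tetur11g04840. The other tested carotenoid genes had means of at most 18.3 CPM, near the low end, so these genes are not closely matched in level. Replicate 3 had the highest value of both scaffold 1 genes and the lowest value of all 3 tested scaffold 11 genes, with TMM and with library size alone. No test of this was made. The highest whole-body value was 1.89 times the lowest for tetur11g04810, against the 44.0-fold difference between the body parts.

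The genes beside the clusters did not share one direction. The 10 identifiers listed on each side of a cluster were taken by scaffold and serial number, an order not checked against an annotation. Around the scaffold 1 cluster 16 of these 20 genes were tested, of which 3 were higher, 9 lower and 4 not called, so 75.0% were called, against 81.4% of all genes tested. Their median log2 fold was -1.17, against -0.03 over all genes. Around the scaffold 11 cluster 17 of 20 were tested, of which 6 were higher, 7 lower and 4 not called, so 76.5% were called. Their median log2 fold was -0.26. With library size alone, 2 were higher and 12 lower around the scaffold 1 cluster, and 5 higher and 10 lower around the scaffold 11 cluster, where 31.2% of all genes tested were higher and 52.2% lower.

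The identifiers directly before the clusters both fell, and those directly after had no reads. The gene tetur01g11240, before the scaffold 1 cluster, had 8.61 ± 0.375 CPM in the whole bodies (SD, n = 3) and 5.13 CPM in the front body, with a log2 fold of -0.75 (edgeR adjusted p = 8.56e-03). The gene tetur11g04800, before the scaffold 11 cluster, had 150.9 ± 2.87 CPM in the whole bodies (SD, n = 3) and 91.2 CPM in the front body, with a log2 fold of -0.73 (edgeR adjusted p = 2.88e-04). It lies next to tetur11g04810, the carotenoid gene with the 44.0-fold rise. No read was counted in any library for tetur01g11280 and tetur11g04850, the next identifiers after each cluster.

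**Figure D4:**
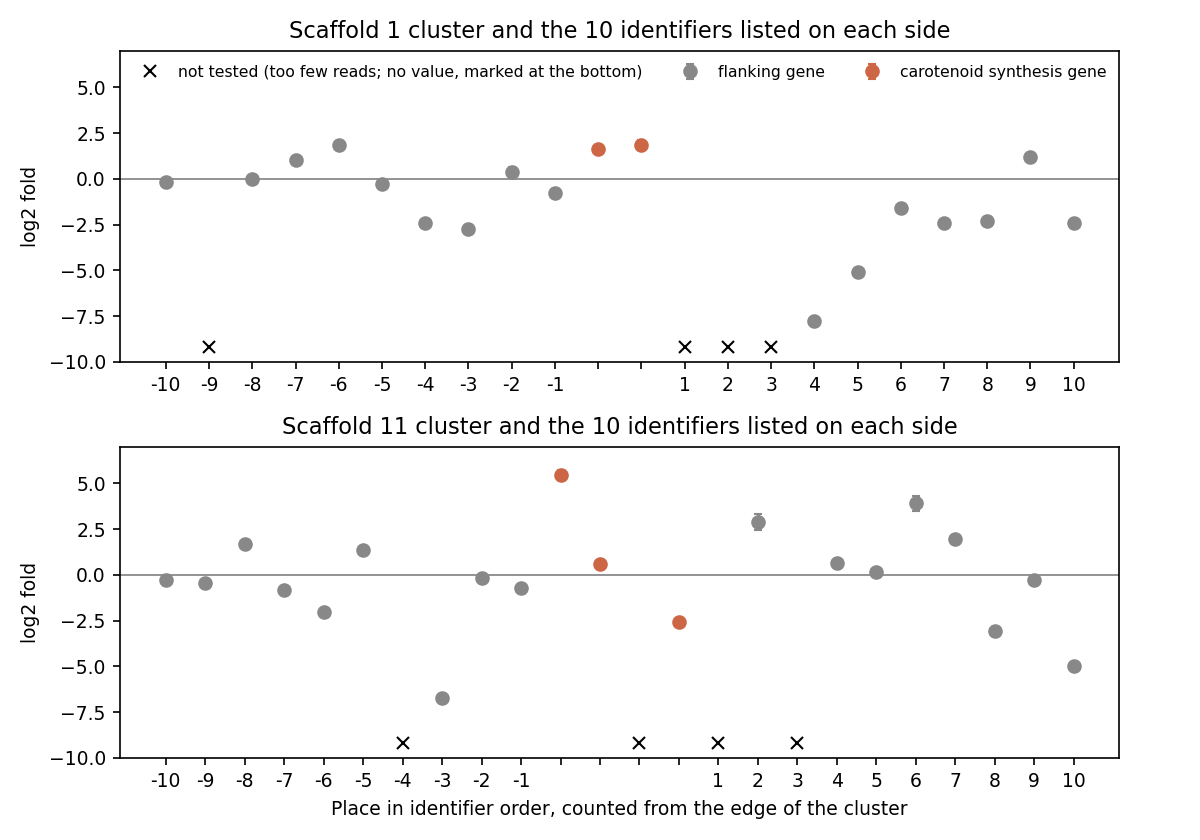
The log2 fold of proterosoma over whole body (± standard error) for the carotenoid genes and for the 10 identifiers listed on each side of each cluster, in identifier order. Flanking genes lie on both sides of 0, from -7.77 to 1.88 around the scaffold 1 cluster and from -6.72 to 3.90 around the scaffold 11 cluster.

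Many other genes had levels like those of tetur01g11270, and few had levels like those of tetur11g04810. Likeness was the Euclidean distance of log2(CPM + 1) over the 4 libraries, which compares levels without correction for gene length. The nearest gene to tetur01g11270 was tetur31g00110, at a distance of 0.289, with 15.1, 13.8 and 19.5 CPM in whole-body replicates 1, 2 and 3 and 54.1 CPM in the proterosoma library. Within a distance of 1 there were 224 genes. The nearest gene to tetur11g04810 was tetur05g05450, at a distance of 0.653, with 14.2, 12.5 and 11.2 CPM in whole-body replicates 1, 2 and 3 and 803 CPM in the proterosoma library. Within a distance of 1 there were 22 genes. Both genes rose, with log2 folds of 1.76 and 5.98, which follows from picking them by likeness over the same 4 libraries. No name is paired with them in the sources used here.

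The authors' own comparison of the same libraries gave similar sizes for the carotenoid genes. In the authors' deposited table the log2 fold was 1.61 for tetur01g11260 and 1.79 for tetur01g11270, with errors of 0.32 and 0.35. For the scaffold 11 cluster, the authors' deposited table gave 5.44 for tetur11g04810, 0.60 for tetur11g04820 and -2.60 for tetur11g04840, with errors of 0.31, 0.23 and 0.20. The adjusted p for tetur11g04820 was 0.0185 in the authors' deposited table. The header of the authors' deposited table does not name the numerator. For 100% of the 8369 genes with an absolute log2 fold of at least 1 there, the sign matched proterosoma over whole body in the counts.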

How the data were processed

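Per the labels, libraries were strand-specific and made from RNA of intact females or dissected proterosomas. The authors deposited raw counts of reads per gene. The submitters' processing notes list HTSeq 0.6.0, STAR 2.5.0b and DESeq2 1.6.3. Not given in the sources used here are the genome build, annotation, strand setting and treatment of multiply mapped reads. Counts of overlapping or antisense genes may therefore be incomplete or hold reads of the other gene. The authors' deposited comparison, per the file headers, holds a mean normalised signal, log2 folds with errors, a test score and p-values.

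Counts of all genes were tested with edgeR 4.0.16 in R 4.3.3 (quasi-likelihood F test, TMM, filterByExpr with a minimum count of 10, body part as the only term, 2 residual degrees of freedom), with Benjamini-Hochberg adjustment over all genes tested and a threshold of 0.05. Cluster sums replaced their members in a second fit. The standard error is the log2 fold over the root of F. The test was tried on simulated data, in which the proterosoma library had the same spread as the whole bodies. Of 50 genes changed at each fold, 36% were called at 1.5-fold, 80% at 2-fold, 94% at 4-fold and 100% at 8-fold. Among the unchanged genes of the 12279 run there were 23 calls. With 50 genes changed at each fold, far fewer differed than the 81.4% called in the data, so these rates need not hold there. The share of false calls in the data was not measured. Alternatives were other scalings, no filter, DESeq2 1.42.0, limma 3.58.1 (voom), a robust fit, a threshold of 0.01, other cluster summaries and leaving out each whole-body library. Intervals came from scipy 1.17.1. The 6 genes and the lists were chosen with earlier results of these data known. Besides these genes, the text names the gene with the nearest pattern to the gene with the highest mean CPM of each cluster, and the identifiers next to each cluster. A planned list of isoprenoid, carotenoid cleavage and opsin genes could not be matched to identifiers and was not tested. The number of sample columns left unused was 0.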

Additional observations from a re-analysis of the deposited data

How the results depend on the processing

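Of 149 values recomputed under alternatives, 146 had an unchanged direction and call, or for counts lay within 1.5 times the reported count. With library size alone, tetur11g04820 had a log2 fold of 0.042 (adjusted p = 0.800). This follows from the scaling, which moved the median log2 fold by -0.57. With each gene weighing the same, the log2 ratio of the clusters turned to -1.14, a value partly set by the 0.5 added to the counts of tetur11g04830, and to -0.56 over the 5 tested genes, a summary chosen after seeing the data. Without each whole-body library in turn, that log2 ratio ranged from 0.13 to 0.62. The log2 folds of tetur01g11260, tetur01g11270, tetur11g04810 and tetur11g04840 ranged over 1.06 to 1.77, 1.27 to 2.09, 4.88 to 5.75 and -3.16 to -2.52 over 10 alternatives each, and were called in all of them. No paired analysis was possible because the only proterosoma library has no replicate and its label carries no replicate number. Depth limits tetur11g04830, which had at most 2 reads in a library. The body part was replicated on the whole-body side only, so no value has a replicate check in the proterosoma.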
